A study of Mus musculus with 40 samples.

Results

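The comparison set wild-type long-term haematopoietic stem cells (LT-HSC), the rare bone marrow cells that renew themselves for life and can rebuild all blood lineages, against wild-type common and granulocyte-macrophage progenitors (CMP/GMP), the downstream cells from which granulocytes and monocytes arise. It used the 8 libraries labelled as wild type for these populations, 4 of LT-HSC and 4 of CMP/GMP, of 40 in the series. Its members were taken by label, and the contrast was chosen with earlier results of these data known. All 8 came from mouse bone marrow, and polyA RNA was reverse transcribed, amplified by a modified SMART-Seq2 protocol and sequenced. The wider study asked how loss of Dnmt3a, a DNA methyltransferase, changes these cells, so the contrast describes the normal difference between 2 of its populations. The sources used here give neither strain, age, treatment, sort gates or cells per library, nor say whether the wild-type animals carried the Mx1-Cre transgene of the knockout line. Nothing in the labels says that replicates are separate animals, so p-values measure the spread between these libraries.

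Stem cells are mostly quiescent and hold their state through transcription factors such as Hlf and Mecom and through receptors for signals from their niche. Myeloid progenitors divide quickly and switch on factors of the C/EBP, PU.1 and IRF families, which drive the serine proteases and the peroxidase stored in the primary (azurophilic) granules of neutrophils. Transposable elements (TE) are repeated sequences of the genome, some of them able to copy themselves through RNA, and host cells silence most of them.

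Gene reads ran from 20.1 M to 45.8 M in LT-HSC and from 33.2 M to 47.7 M in CMP/GMP, and 12970 to 14177 and 14372 to 14911 genes had at least 1 read. Levels below are CPM, gene reads scaled to a library of 1 M. A mean is given ± SD and a log2 fold change (LT-HSC minus CMP/GMP) ± SE, each over 4 libraries a group. One LT-HSC library stood apart. Across 13223 genes, the log2 CPM of LT-HSC WT 1 had a Pearson correlation of 0.689 to 0.73 with the other LT-HSC libraries and of 0.711 to 0.769 with CMP/GMP, while LT-HSC WT 2 to 4 correlated with each other at 0.85 to 0.856. CMP/GMP WT 2 and 4 were close, at 0.991 against 0.927 to 0.949 for the other CMP/GMP pairs. Their counts still differed beyond the sampling noise of reads (chi-square per degree of freedom 81, against 141 to 252 for the other pairs). By a rule set beforehand both were kept, and each main count is also given with the pair summed. With this many reads every pair of libraries differed by that measure, so it cannot show that CMP/GMP WT 2 and 4 are separate samples. CMP/GMP WT 3 had the most granule RNA of its group. Transcripts of the Y chromosome were present in LT-HSC WT 1 and 2 and CMP/GMP WT 1, 2 and 4, and Xist in the others. Among counts from 1 to 20, 67.2% to 84.4% were even.

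The genes were tested by quasi-likelihood in edgeR, with p-values adjusted by the method of Benjamini and Hochberg. In all, 1061 of 13191 tested genes (8.04%) had an adjusted p under 0.05, called below. Of these, 572 (4.34%) were higher in LT-HSC and 489 (3.71%) lower, and 561 and 399 changed over 2-fold. The 2 groups did not overlap for 2417 genes (18.3%). The median log2 fold change (LT-HSC minus CMP/GMP) over all tested genes was 0.08. With the pair summed, 318 of 13618 genes (2.34%) were called, 209 higher and 109 lower. Without LT-HSC WT 1, 1032 of 13886 (7.43%) were higher and 1055 (7.6%) lower. Leaving out LT-HSC WT 3 or 4 gave 653 and 541 calls, and leaving out CMP/GMP WT 1, 2, 3 or 4 gave 593, 290, 602 and 340. In the reported fit, each leave-one-out fit and the summed fit, 273 genes were called in the same direction, 188 higher and 85 lower in LT-HSC. The plot of calls by setting shows how the number moves while both directions stay filled. The spread between libraries was wide, with a common biological coefficient of variation of 0.831. Shares called in the gene lists below are to be read against those of all tested genes in the same fit. The lists were drawn up with earlier results of these data known, so their shares are descriptive.

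**Figure D1:**
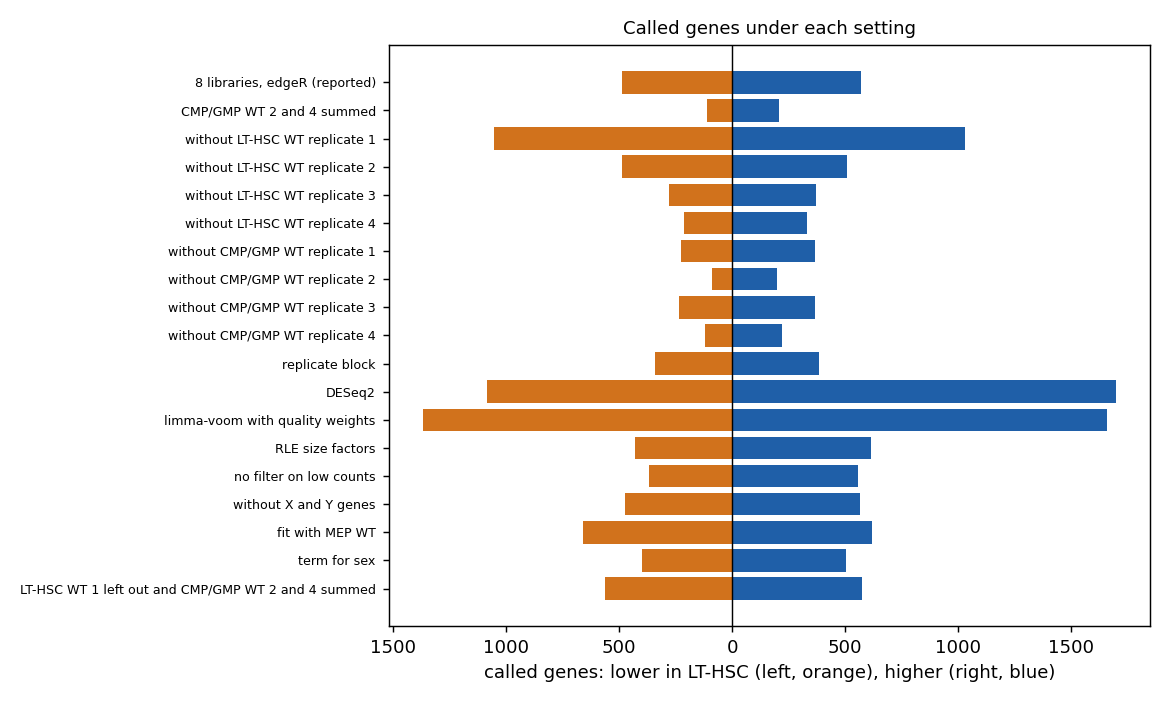
Number of genes called (adjusted p under 0.05) under each setting, with genes lower in LT-HSC to the left of 0 and genes higher to the right. The reported fit called 489 lower and 572 higher, and the summed fit 109 and 209.

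The marker genes of stem cells separated the 2 labels in all 8 libraries. Hlf, a PAR-type bZIP transcription factor of stem cells (chr11:90336535-90390917), was measured at 281, 159, 269 and 323 CPM in LT-HSC WT 1 to 4 and 18.4, 21.9, 8.67 and 31.9 CPM in CMP/GMP WT 1 to 4. It was higher in LT-HSC in edgeR (log2 fold change 3.5 ± 0.41, adjusted p = 0.00206), and the groups were far apart. Mecom, which encodes the zinc-finger factor EVI1 (chr3:29951296-30509759), was at 97.8, 98.8, 106 and 222 CPM in LT-HSC WT 1 to 4 and 5.17, 5.71, 9.33 and 7.06 CPM in CMP/GMP WT 1 to 4 (log2 fold change 4.08 ± 0.38, adjusted p = 0.0014). LT-HSC WT 4 was the highest of its group and all 4 exceeded every CMP/GMP library. Procr, the endothelial protein C receptor (chr2:155751125-155755478), was at 62.7, 186, 153 and 105 CPM in LT-HSC WT 1 to 4 and 1.14, 3.86, 4.94 and 4.53 CPM in CMP/GMP WT 1 to 4 (log2 fold change 4.95 ± 0.55, adjusted p = 0.00178). Slamf1, which encodes CD150 (chr1:171767131-171801184), was at 33.8, 81.7, 80.7 and 73.6 CPM in LT-HSC WT 1 to 4 and 1.2, 1.05, 3.52 and 1.66 CPM in CMP/GMP WT 1 to 4 (log2 fold change 5 ± 0.56, adjusted p = 0.00181). For both receptors the lowest LT-HSC value was that of LT-HSC WT 1. Mllt3, chosen after its values were seen and a chromatin reader of the super elongation complex (chr4:87769925-88033407), was at 136, 168, 148 and 184 CPM in LT-HSC WT 1 to 4 and 12.4, 9.02, 15.1 and 7.86 CPM in CMP/GMP WT 1 to 4 (log2 fold change 3.66 ± 0.3, adjusted p = 0.00132). Fgd5, likewise chosen and a guanine nucleotide exchange factor (chr6:91978827-92076005), also did not overlap between groups, at 12.9, 41.4, 22.4 and 18.9 CPM in LT-HSC WT 1 to 4 and 2.7, 5.25, 0 and 7.04 CPM in CMP/GMP WT 1 to 4, but did not pass the test (log2 fold change 2.5 ± 1.19, adjusted p = 0.235). Hlf, Mecom, Procr, Slamf1 and Mllt3 stayed past the threshold with each library left out and with the pair summed (highest adjusted p = 0.0113).

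**Figure D2:**
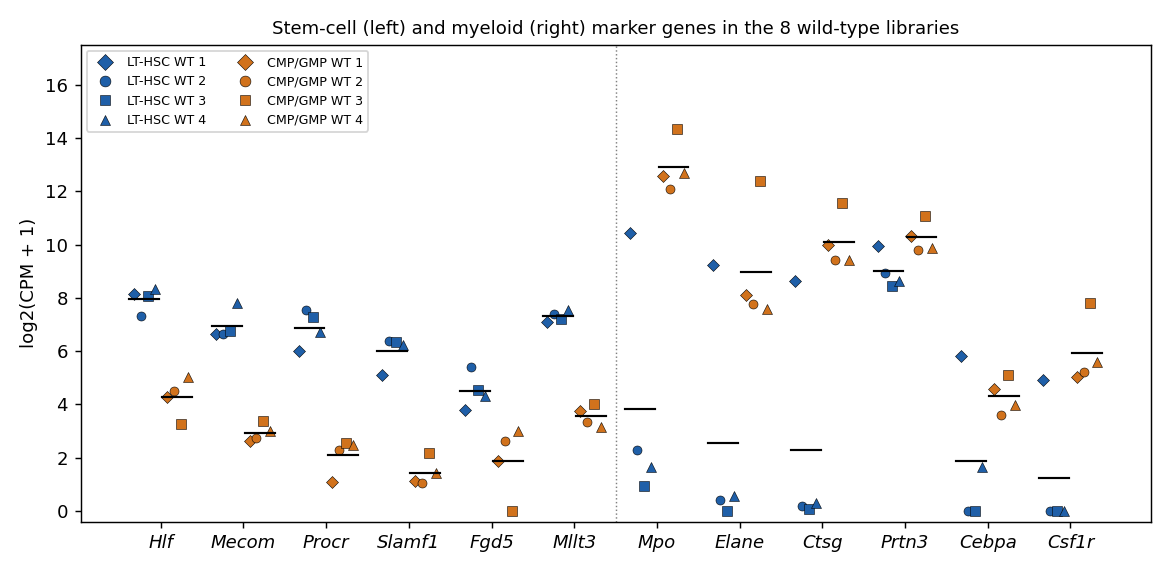
Level of 6 stem-cell and 6 myeloid marker genes in each library as log2(CPM + 1), blue for LT-HSC and orange for CMP/GMP, with a line at each group's mean of these values. Stem-cell genes separate the groups, and for Mpo, Elane, Ctsg, Cebpa and Csf1r LT-HSC WT 1 (blue diamond) lies far above LT-HSC WT 2 to 4.

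The myeloid markers did not match the label in 1 stem-cell library. Mpo, the myeloperoxidase of primary granules (chr11:87793784-87804412), was at 1378, 3.87, 0.913 and 2.14 CPM in LT-HSC WT 1 to 4 and 6013, 4345, 20863 and 6532 CPM in CMP/GMP WT 1 to 4. LT-HSC WT 2 to 4 were near 0, while LT-HSC WT 1 was high but still below every CMP/GMP library. Elane, neutrophil elastase (chr10:79886312-79888216), was at 599.7, 0.349, 0 and 0.48 CPM in LT-HSC WT 1 to 4 and 272, 217, 5408 and 189 CPM in CMP/GMP WT 1 to 4, and LT-HSC WT 1 exceeded 3 of the 4 CMP/GMP libraries. Ctsg, cathepsin G (chr14:56099885-56102574), was at 397, 0.127, 0.0481 and 0.218 CPM in LT-HSC WT 1 to 4 and 1018, 692, 2997 and 688 CPM in CMP/GMP WT 1 to 4, with the groups apart but LT-HSC WT 1 far above the other stem-cell libraries. Across 8 libraries these genes did not pass the edgeR test: the log2 fold change of Mpo was -4.89 ± 2.02 (adjusted p = 0.176), of Elane -3.47 ± 2.31 (adjusted p = 0.413) and of Ctsg -3.89 ± 2.12 (adjusted p = 0.302). Without LT-HSC WT 1 all 3 were called, at -12.21 ± 0.95, adjusted p = 0.000181 for Mpo, -12.62 ± 2.02, adjusted p = 0.00459 for Elane and -13.47 ± 0.93, adjusted p = 0.000134 for Ctsg. Prtn3, proteinase 3 (chr10:79879667-79883174), which lies beside Elane, behaved differently. It was at 994, 486, 351 and 397 CPM in LT-HSC WT 1 to 4 and 1266, 885, 2162 and 941 CPM in CMP/GMP WT 1 to 4, so the 3 stem-cell libraries that lacked Mpo and Elane still held 351 to 486 CPM of Prtn3. Its difference was smaller (log2 fold change -1.4 ± 0.41, adjusted p = 0.0613, and -1.87 ± 0.32, adjusted p = 0.00638 without LT-HSC WT 1).

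The promoters of these 4 granule genes, and that of Hlf for contrast, are printed from RefSeq's table of build GRCm38.p6, from 250 bases before to 50 after each annotated start, because the genes share a cell type and yet Prtn3 differed in the stem cells. They lie at Mpo chr11:87793534-87793833 (plus strand), Elane chr10:79886062-79886361 (plus strand), Prtn3 chr10:79879417-79879716 (plus strand), Ctsg chr14:56102525-56102824 (minus strand) and Hlf chr11:90390868-90391167 (minus strand). Each is written 5′ to 3′ on the gene's strand, and capitals mark the letters of any of 5 motifs found on either strand.
Mpo: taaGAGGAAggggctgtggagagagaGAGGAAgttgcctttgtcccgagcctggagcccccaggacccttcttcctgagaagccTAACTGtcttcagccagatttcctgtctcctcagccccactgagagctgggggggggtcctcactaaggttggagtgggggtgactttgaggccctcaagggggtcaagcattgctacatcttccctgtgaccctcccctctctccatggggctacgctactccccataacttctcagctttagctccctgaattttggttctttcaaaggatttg
Elane: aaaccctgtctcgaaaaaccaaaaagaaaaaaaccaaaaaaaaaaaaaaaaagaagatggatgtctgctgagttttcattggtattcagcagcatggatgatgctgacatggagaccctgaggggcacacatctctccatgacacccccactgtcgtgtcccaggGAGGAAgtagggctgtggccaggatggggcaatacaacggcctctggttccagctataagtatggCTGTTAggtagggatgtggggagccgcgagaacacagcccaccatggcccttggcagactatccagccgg
Prtn3: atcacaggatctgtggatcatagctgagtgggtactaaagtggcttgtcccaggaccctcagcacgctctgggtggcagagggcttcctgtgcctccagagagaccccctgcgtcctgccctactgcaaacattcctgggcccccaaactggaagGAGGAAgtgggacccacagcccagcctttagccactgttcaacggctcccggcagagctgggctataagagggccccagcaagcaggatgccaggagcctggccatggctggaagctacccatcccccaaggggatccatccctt
Ctsg: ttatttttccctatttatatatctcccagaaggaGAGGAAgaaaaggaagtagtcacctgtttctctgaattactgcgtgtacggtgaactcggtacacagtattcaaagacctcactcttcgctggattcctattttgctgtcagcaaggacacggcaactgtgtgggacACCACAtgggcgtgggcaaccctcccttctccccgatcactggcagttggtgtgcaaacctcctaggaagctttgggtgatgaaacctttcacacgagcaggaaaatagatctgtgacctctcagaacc
Hlf: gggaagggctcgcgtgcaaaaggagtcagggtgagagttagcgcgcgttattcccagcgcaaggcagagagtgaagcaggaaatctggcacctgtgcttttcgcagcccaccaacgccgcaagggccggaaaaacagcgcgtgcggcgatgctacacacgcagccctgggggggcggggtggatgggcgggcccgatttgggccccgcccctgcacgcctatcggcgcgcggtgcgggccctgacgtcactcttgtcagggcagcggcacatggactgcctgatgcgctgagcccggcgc
The motifs were searched on both strands, and no matches overlapped in these windows. For PU.1 the letters were GAGGAA. For MYB they were TAACNG. The RUNX motif was TGTGGT. That of GATA factors was AGATAA. For C/EBP the letters were TTNNGNAAT. GAGGAA was in all 4 granule promoters, with 2 matches in Mpo and 1 each in Elane, Prtn3 and Ctsg, and was held by 28.3% of 32851 promoters of the same length. TAACNG was in Mpo and Elane, and in 23.3% of all promoters. TGTGGT was in Ctsg, and in 16.8%. AGATAA and TTNNGNAAT were in none of the 5, and in 11.2% and 11.5% of all promoters. The Hlf window held none of the 5. These are matches of letters, not evidence of binding.

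More primary granule genes passed without LT-HSC WT 1 than with 8 libraries. Of 20 genes, 18 were tested. At an adjusted p under 0.05, 0 (0%) were higher in LT-HSC and 3 (16.7%) lower, against 4.34% and 3.71% of all tested genes. The median log2 fold change was -2.56. For primary granule proteins, leaving out LT-HSC WT 1 gave 0 higher and 13 lower of 18 (median -4.09), and summing the close pair gave 0 higher and 3 lower of 18. The summed level of the list was 6468, 2633, 2561 and 2578 CPM in LT-HSC WT 1 to 4 and 13639, 9959, 38096 and 11685 CPM in CMP/GMP WT 1 to 4, so CMP/GMP WT 3 was the highest and LT-HSC WT 1 lay between the groups. Passing the test with all 8 libraries were Prss57, a neutrophil serine protease (chr10:79781474-79794684; 15.3 ± 5.83 CPM in LT-HSC and 98.6 ± 31.1 CPM in CMP/GMP; log2 fold change -2.68 ± 0.4, adjusted p = 0.0049), Nkg7, a granule membrane protein of cytotoxic and myeloid cells (chr7:43437138-43438246; 89.9 ± 45.7 CPM in LT-HSC and 516 ± 117 CPM in CMP/GMP; log2 fold change -2.52 ± 0.34, adjusted p = 0.00345), and Serpinb1a, an inhibitor of neutrophil proteases (chr13:32842092-32853206; 72.3 ± 32.3 CPM in LT-HSC and 249 ± 49.3 CPM in CMP/GMP; log2 fold change -1.78 ± 0.34, adjusted p = 0.0135). Prss57, Nkg7 and Serpinb1a stayed past the threshold with each library left out and with the pair summed (highest adjusted p = 0.045). Plac8, abundant in myeloid progenitors and chosen after its values were seen, was at 1056, 52.5, 24.9 and 45.4 CPM in LT-HSC WT 1 to 4 and 1329.5, 1101, 2034 and 926 CPM in CMP/GMP WT 1 to 4. LT-HSC WT 1 was within the CMP/GMP range for it.

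Of the 25 myeloid transcription factors and cytokine receptors, 24 were tested. At an adjusted p under 0.05, 2 (8.33%) were higher in LT-HSC and 0 (0%) lower, against 4.34% and 3.71% of all tested genes. The median log2 fold change was -0.65. For myeloid regulators, leaving out LT-HSC WT 1 gave 3 higher and 6 lower of 25 (median -1.28), and summing the close pair gave 1 higher and 0 lower of 24. Cebpa, the C/EBP factor needed for granulocyte fate (chr7:35119293-35121928), was at 54.8, 0, 0 and 2.18 CPM in LT-HSC WT 1 to 4 and 22.6, 11.2, 33 and 14.6 CPM in CMP/GMP WT 1 to 4, highest of all in LT-HSC WT 1. Irf8, a factor of monocyte fate chosen after its values were seen (chr8:120736358-120756694), was at 104, 4.25, 6.15 and 8.81 CPM in LT-HSC WT 1 to 4 and 176, 280.4, 886 and 261 CPM in CMP/GMP WT 1 to 4. It missed the threshold with 8 libraries (log2 fold change -3.85 ± 1.07, adjusted p = 0.0538) and was called without LT-HSC WT 1 (-6.17 ± 0.67, adjusted p = 0.000921). Csf1r, the receptor for macrophage colony-stimulating factor (chr18:61105572-61131139), had no read in LT-HSC WT 2 to 4 and 29.2 CPM in LT-HSC WT 1, against 31.4, 36.4, 225 and 47.7 CPM in CMP/GMP WT 1 to 4. Clec12a, a myeloid lectin receptor chosen after its values were seen, was likewise high in LT-HSC WT 1 alone among stem cells, at 55.8, 0.0634, 0.24 and 0.175 CPM in LT-HSC WT 1 to 4 and 57.4, 59.2, 412 and 55.3 CPM in CMP/GMP WT 1 to 4. The members called with 8 libraries were both higher in LT-HSC. Klf4, a Krüppel-like factor (chr4:55527137-55532475), was at 125, 45.3, 42.9 and 36.8 CPM in LT-HSC WT 1 to 4 and 4.93, 12.7, 5.27 and 9.1 CPM in CMP/GMP WT 1 to 4 (log2 fold change 2.81 ± 0.55, adjusted p = 0.0146). Etv3, an ETS-family repressor (chr3:87525577-87540158), was at 127, 35.7, 32.3 and 33.8 CPM in LT-HSC WT 1 to 4 and 13.3, 10.6, 9.06 and 17.1 CPM in CMP/GMP WT 1 to 4 (log2 fold change 2.05 ± 0.54, adjusted p = 0.0452). LT-HSC WT 1 was the highest for both. Klf4 missed the threshold without CMP/GMP WT 4 (highest adjusted p = 0.0544). Etv3 missed the threshold without LT-HSC WT 3 or 4 or any of CMP/GMP WT 1 to 4, and with the pair summed (highest adjusted p = 0.143).

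Many of the tested stem cell transcription factors rose in LT-HSC. Of the 30 genes, 29 were tested. At an adjusted p under 0.05, 16 (55.2%) were higher in LT-HSC and 0 (0%) lower, against 4.34% and 3.71% of all tested genes. The median log2 fold change was 1.76. For stem cell transcription factors, leaving out LT-HSC WT 1 gave 17 higher and 0 lower of 29 (median 1.42), and summing the close pair gave 10 higher and 0 lower of 29. All 29 tested had a positive log2 fold change, against 7020 of 13191 tested genes. The list was drawn up with earlier results of these data known, so these counts describe it and are not an independent test. The largest changes were in genes nearly absent from CMP/GMP. Nkx2-3, a homeobox factor (chr19:43612325-43615892), was at 43.8, 11.9, 14.8 and 21.2 CPM in LT-HSC WT 1 to 4 with no read in CMP/GMP. Its mean was at least 1186-fold higher than the floor of 3 reads over the CMP/GMP libraries, 0.0193 CPM. Tcf15, a bHLH factor (chr2:152143056-152149097), was at 7.37, 4.85, 2.24 and 2.99 CPM against 0, with a mean at least 226-fold higher by the same floor. Klf12, another Krüppel-like factor (chr14:99866181-100285891), was at 36.4, 3.9, 23.6 and 8.29 CPM, with 2 reads in CMP/GMP WT 4 and none in the other 3. Sox18, an SRY-box factor (chr2:181669837-181671640), was at 11.8, 3.55, 38.6 and 9.16 CPM, with 0.12 CPM in CMP/GMP WT 1 and none elsewhere. By absolute difference, Lmo2, a bridging factor of blood transcription complexes (chr2:103957903-103981878), led the list at 629.8, 728, 1283 and 1319 CPM in LT-HSC WT 1 to 4 and 158, 85.3, 81.7 and 84.8 CPM in CMP/GMP WT 1 to 4 (log2 fold change 3.09 ± 0.34, adjusted p = 0.00174). Nkx2-3, Klf12 and Lmo2 stayed past the threshold with each library left out and with the pair summed (highest adjusted p = 0.0275). Tcf15 missed the threshold without CMP/GMP WT 2 or 4, and with the pair summed (highest adjusted p = 0.0735). Sox18 missed the threshold without LT-HSC WT 3 or CMP/GMP WT 2 or 4, and with the pair summed (highest adjusted p = 0.0623).

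Surface and signalling genes of stem cells split. Of 32, 30 were tested. At an adjusted p under 0.05, 11 (36.7%) were higher in LT-HSC and 1 (3.33%) lower, against 4.34% and 3.71% of all tested genes. The median log2 fold change was 1.84. For surface genes, leaving out LT-HSC WT 1 gave 16 higher and 2 lower of 31 (median 1.77), and summing the close pair gave 10 higher and 1 lower of 30. Sult1a1, a sulfotransferase (chr7:126672865-126690443), had the largest change, at 212, 475, 198 and 209.7 CPM in LT-HSC WT 1 to 4 and 0.0601, 0.042, 2.59 and 0.146 CPM in CMP/GMP WT 1 to 4 (log2 fold change 8.45 ± 1.27, adjusted p = 0.0049). Ly6a, which encodes the stem cell antigen Sca-1 (chr15:74994877-74998031), was at 141, 239.8, 118 and 153 CPM in LT-HSC WT 1 to 4 and 8.47, 0.965, 3.61 and 0.633 CPM in CMP/GMP WT 1 to 4 (log2 fold change 5.4 ± 0.8, adjusted p = 0.00474). The single member called lower was Cd34, a sialomucin that mouse long-term stem cells largely lack, named as that exception (chr1:194938821-194961292). It was at 230.1, 221, 143 and 246 CPM in LT-HSC WT 1 to 4 and 521, 689, 791 and 697 CPM in CMP/GMP WT 1 to 4 (log2 fold change -1.86 ± 0.24, adjusted p = 0.00276). Cd48, a SLAM receptor used to gate against in stem cell sorts and chosen after its values were seen, was at 47.9, 6.66, 3.03 and 0.0873 CPM in LT-HSC WT 1 to 4 and 269, 226, 235 and 179 CPM in CMP/GMP WT 1 to 4. It was called only in 1 of the 9 refits, without LT-HSC WT 1 (-6.32 ± 1.02, adjusted p = 0.0047; log2 fold change -4.12 ± 1.23, adjusted p = 0.0693 with 8 libraries). Sult1a1, Ly6a and Cd34 stayed past the threshold with each library left out and with the pair summed (highest adjusted p = 0.0221).

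Hox genes, homeobox factors of position and self-renewal, had 12 of 39 members pass the filter on low counts, and a member that passes through 1 group alone has to differ. At an adjusted p under 0.05, 3 (25%) of these 12 were higher in LT-HSC and 0 (0%) lower, against 4.34% and 3.71% of all tested genes. The median log2 fold change was 2.98. For Hox genes, leaving out LT-HSC WT 1 gave 3 higher and 0 lower of 12 (median 2.18), and summing the close pair gave 1 higher and 0 lower of 12. The called members were Hoxb6, Hoxb5 and Hoxa10. Hoxb6 (chr11:96292814-96301569) was at 4.28, 4.75, 9.28 and 12.3 CPM in LT-HSC WT 1 to 4 with no read in CMP/GMP, its mean at least 396-fold above the floor. Hoxb5 (chr11:96303512-96306121) was at 13.8, 7.54, 17.6 and 22.8 CPM in LT-HSC WT 1 to 4 and 0, 0.839, 0.482 and 0.949 CPM in CMP/GMP WT 1 to 4. Hoxa10 (chr6:52231197-52240854) was at 61, 26.8, 24 and 37.9 CPM in LT-HSC WT 1 to 4 and 4.39, 9.23, 7.59 and 8.81 CPM in CMP/GMP WT 1 to 4. The summed level of all 39 was 278, 162, 294 and 275 CPM in LT-HSC WT 1 to 4 and 85.7, 87.2, 115 and 94.3 CPM in CMP/GMP WT 1 to 4. Hoxb6 stayed past the threshold with each library left out and with the pair summed (highest adjusted p = 0.0436). Hoxb5 missed the threshold without LT-HSC WT 2, 3 or 4 or CMP/GMP WT 2, 3 or 4, and with the pair summed (highest adjusted p = 0.136). Hoxa10 missed the threshold without LT-HSC WT 4 or any of CMP/GMP WT 1 to 4, and with the pair summed (highest adjusted p = 0.089).

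Imprinted genes, expressed from 1 parental allele and many of them growth regulators, had rises and no falls among their calls. Of 26, 18 were tested. At an adjusted p under 0.05, 5 (27.8%) were higher in LT-HSC and 0 (0%) lower, against 4.34% and 3.71% of all tested genes. The median log2 fold change was 1.42. For imprinted genes, leaving out LT-HSC WT 1 gave 5 higher and 0 lower of 19 (median 1.12), and summing the close pair gave 3 higher and 0 lower of 19. Meg3, a long non-coding RNA (chr12:109540996-109571729), was at 85.4, 75, 6.51 and 3.62 CPM in LT-HSC WT 1 to 4 and had no read in CMP/GMP. Its mean, set mostly by LT-HSC WT 1 and 2, was at least 2207-fold above the floor of 3 reads over the CMP/GMP libraries. Dlk1, the Notch-like ligand of the same imprinted domain (chr12:109452485-109463336), was at 14.4, 86.8, 2.74 and 2.71 CPM in LT-HSC WT 1 to 4 and 0.24, 0.923, 0.301 and 0.682 CPM in CMP/GMP WT 1 to 4 (log2 fold change 5.45 ± 1.3, adjusted p = 0.0301). Both varied more than 10-fold among stem-cell libraries. Meg3 was high in LT-HSC WT 1 and 2 and Dlk1 highest in LT-HSC WT 2. Ndn, the growth suppressor necdin (chr7:62348277-62349928), was at 51.2, 126, 156 and 138 CPM in LT-HSC WT 1 to 4 and 3, 0, 1.51 and 0.0974 CPM in CMP/GMP WT 1 to 4 (log2 fold change 6.51 ± 1.27, adjusted p = 0.0142). Phlda2, a pleckstrin-domain growth regulator (chr7:143501545-143503145), was at 20.2, 11.8, 30.3 and 22.9 CPM in LT-HSC WT 1 to 4 and 0.481, 0.797, 0.12 and 0.73 CPM in CMP/GMP WT 1 to 4 (log2 fold change 5.13 ± 0.85, adjusted p = 0.00726). Meg3, Ndn and Phlda2 stayed past the threshold with each library left out and with the pair summed (highest adjusted p = 0.0451). Dlk1 missed the threshold without LT-HSC WT 2 or any of CMP/GMP WT 1 to 4, and with the pair summed (highest adjusted p = 0.126).

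Genes read in a single population gave the largest changes overall. Of the tested genes, 37 had no read in any CMP/GMP library and 37 of these were called, and 76 had none in any LT-HSC library, of which 75 were called. Of all tested genes, 4.34% were called higher and 3.71% lower. Such genes at 0 pass the filter through 1 group alone, so their direction was fixed and a call was likely. These counts, and the refits of such genes here and below, are therefore descriptive and no test of them. By fitted change the 10 largest rises among genes that the naming rule given below admits were Meg3, Nkx2-3 and 8 others. All were at 0 in CMP/GMP, and 7 of the 8 are described here. Tinagl1, a secreted matrix protein (chr4:130165600-130175122), was at 3.09, 24, 50.8 and 44.9 CPM in LT-HSC WT 1 to 4, its mean at least 1588-fold above the floor. Wfdc2, a secreted WAP-domain protein (chr2:164562715-164568510), was at 19.3, 12, 24.9 and 30.2 CPM, its mean at least 1118-fold above it. Insrr, the insulin receptor-related receptor (chr3:87796908-87816101), was at 3.49, 8.37, 28.2 and 30.8 CPM. Wwtr1, the YAP partner TAZ of Hippo signalling (chr3:57455644-57575910), was at 10.2, 20.6, 26 and 13.1 CPM. The other three were Hspb8 at 2.69 to 37.1 CPM, Agtr1a at 6.09 to 24.3 CPM and Ikzf4 at 5.38 to 33.3 CPM, a small heat shock protein, an angiotensin receptor and the Ikaros-family factor Eos. LT-HSC WT 1 was the lowest stem-cell library for Tinagl1, Insrr, Wwtr1 and Hspb8. Tinagl1, Wfdc2, Insrr, Wwtr1, Hspb8, Agtr1a and Ikzf4 stayed past the threshold with each library left out and with the pair summed (highest adjusted p = 0.0294).

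Among genes with no read in LT-HSC, LT-HSC WT 1 included, Siglecf, a sialic-acid receptor known from eosinophils (chr7:43351341-43359475), was at 49.9, 21.4, 35.3 and 32.5 CPM in CMP/GMP WT 1 to 4. Its mean was at least 1612-fold above the floor of 3 reads over the LT-HSC libraries (0.0216 CPM). Csrp3, a muscle LIM protein (chr7:48830398-48848051), was at 23, 27.7, 37.5 and 25.1 CPM, with a mean at least 1313-fold above that floor. Scin, the actin-severing protein scinderin (chr12:40059769-40134228), was at 15.5, 14.7, 11 and 20.5 CPM, and Gna14, a G-protein alpha subunit (chr19:16435667-16610818), at 10.5, 18.7, 13.9 and 26.1 CPM. Pkib, an inhibitor of protein kinase A, was at 10.3, 8.54, 45.2 and 8.2 CPM, Cldn15, a claudin, at 4.69, 5.58, 35.2 and 5.31 CPM, and Chdh, choline dehydrogenase, at 3.69, 1.97, 28.3 and 2.65 CPM. For these 3, CMP/GMP WT 3 was the highest. Pdzph1 and Epha7, an ephrin receptor, were instead highest in CMP/GMP WT 2 and 4, at 7.09, 25.1, 4.88 and 23.6 CPM and 11.6, 14.8, 5.78 and 19.4 CPM. Kcng1, a potassium channel subunit, was at 4.9, 10.3, 22.1 and 12.3 CPM. Siglecf, Csrp3, Pkib, Gna14, Scin, Pdzph1, Epha7, Cldn15 and Kcng1 stayed past the threshold with each library left out and with the pair summed (highest adjusted p = 0.038). Chdh missed the threshold without CMP/GMP WT 3 (highest adjusted p = 0.053).

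The list medians set these groups beside the rest. Stem-cell, Hox and imprinted genes had positive medians and granule, mast-cell and replication genes negative ones, against 0.08 over all tested genes. Setting members with no read in a group to their bound changed no list median.

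**Figure D3:**
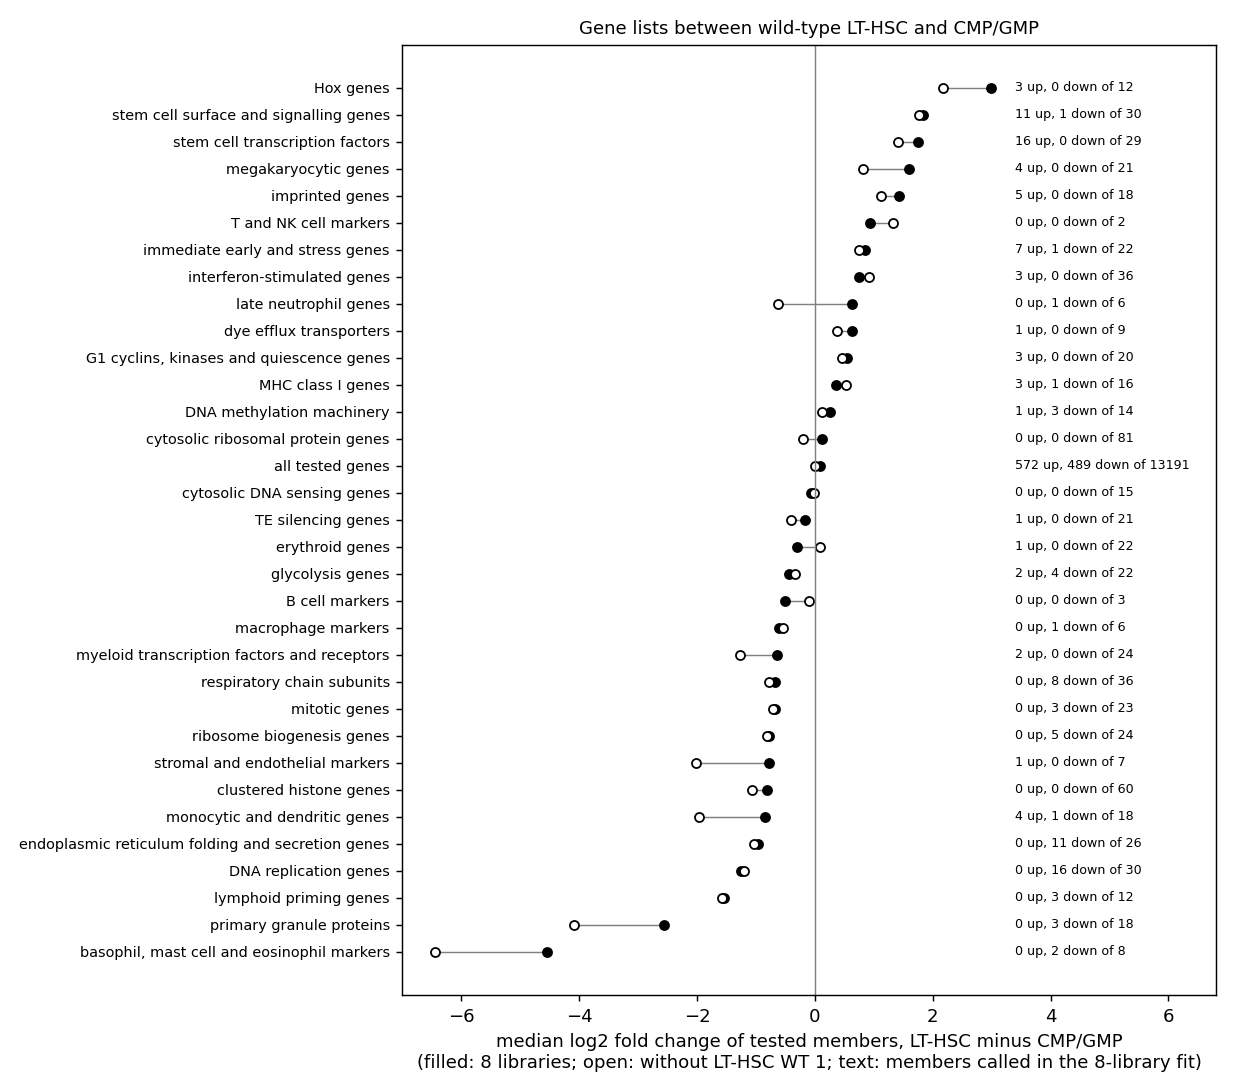
Median log2 fold change (LT-HSC minus CMP/GMP) of the tested members of each gene list with 8 libraries (filled) and without LT-HSC WT 1 (open), with the number called beside it. Primary granule proteins and basophil, mast cell and eosinophil markers move the most when LT-HSC WT 1 is left out.

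Monocytic and dendritic genes went both ways. Of 21, 18 were tested. At an adjusted p under 0.05, 4 (22.2%) were higher in LT-HSC and 1 (5.56%) lower, against 4.34% and 3.71% of all tested genes. The median log2 fold change was -0.84. For monocytic and dendritic genes, leaving out LT-HSC WT 1 gave 5 higher and 9 lower of 18 (median -1.96), and summing the close pair gave 4 higher and 1 lower of 18. The 4 called rises were of the MHC class II pathway, which presents peptides to helper T cells. H2-Eb1 (chr17:34305867-34316674) was at 80.8, 78.6, 156 and 187 CPM in LT-HSC WT 1 to 4 and 0, 1.11, 1.2 and 0.463 CPM in CMP/GMP WT 1 to 4 (log2 fold change 7.29 ± 0.96, adjusted p = 0.00318). H2-Aa (chr17:34282744-34287823) was at 87.1, 80.4, 176 and 139 CPM in LT-HSC WT 1 to 4 and 3.12, 1.01, 6.5 and 1.51 CPM in CMP/GMP WT 1 to 4 (log2 fold change 5.13 ± 0.64, adjusted p = 0.00253). Cd74, the invariant chain (chr18:60803849-60812652), was at 115, 312, 263 and 417 CPM in LT-HSC WT 1 to 4 and 1.08, 9.97, 0.181 and 10.2 CPM in CMP/GMP WT 1 to 4 (log2 fold change 5.5 ± 1.05, adjusted p = 0.013). The remaining call was H2-Ab1. These class II genes have near relatives, so the split of reads among them is uncertain. All 4 LT-HSC libraries exceeded every CMP/GMP library for the 3 genes given, LT-HSC WT 2 to 4 without Csf1r reads included. Emb, embigin, an adhesion protein (chr13:117220573-117274415), was the called fall, at 177, 108, 115 and 149.6 CPM in LT-HSC WT 1 to 4 and 421, 498, 754 and 552 CPM in CMP/GMP WT 1 to 4 (log2 fold change -2.19 ± 0.26, adjusted p = 0.00228). H2-Eb1, H2-Aa, Cd74 and Emb stayed past the threshold with each library left out and with the pair summed (highest adjusted p = 0.0386).

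Some megakaryocytic genes rose. Of 24, 23 in the table, 21 were tested. At an adjusted p under 0.05, 4 (19%) were higher in LT-HSC and 0 (0%) lower, against 4.34% and 3.71% of all tested genes. The median log2 fold change was 1.59. For megakaryocytic genes, leaving out LT-HSC WT 1 gave 5 higher and 1 lower of 21 (median 0.82), and summing the close pair gave 3 higher and 0 lower of 21. Among the called members, Nrgn, the calmodulin-binding protein neurogranin (chr9:37544493-37552745), was at 117, 48.1, 156 and 115 CPM in LT-HSC WT 1 to 4 and 27, 13.2, 16.3 and 16 CPM in CMP/GMP WT 1 to 4 (log2 fold change 2.41 ± 0.41, adjusted p = 0.00789). Vwf, von Willebrand factor (chr6:125552948-125686679), was at 56.9, 67.4, 102 and 66.9 CPM in LT-HSC WT 1 to 4 and 10.6, 17.3, 11.7 and 21.7 CPM in CMP/GMP WT 1 to 4 (log2 fold change 2.08 ± 0.37, adjusted p = 0.0095). Selp, P-selectin (chr1:164115264-164150026), was at 78.4, 259, 163 and 101 CPM in LT-HSC WT 1 to 4 and 45.6, 29.1, 27.2 and 44.4 CPM in CMP/GMP WT 1 to 4 (log2 fold change 1.87 ± 0.39, adjusted p = 0.0185). Pf4, platelet factor 4, was at 2191, 151, 119 and 134 CPM in LT-HSC WT 1 to 4 and 241, 219, 168 and 135 CPM in CMP/GMP WT 1 to 4, so its log2 fold change of 1.63 (adjusted p = 0.304) rested on LT-HSC WT 1. Without that library it was -0.71 ± 0.24, adjusted p = 0.076. Nrgn and Vwf stayed past the threshold with each library left out and with the pair summed (highest adjusted p = 0.0389). Selp missed the threshold without CMP/GMP WT 2, 3 or 4, and with the pair summed (highest adjusted p = 0.0784).

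A single erythroid gene passed the test with 8 libraries, a share close to the 4.34% of all tested genes called higher. Of 24, 22 were tested, 1 (4.55%) higher and 0 (0%) lower in LT-HSC at an adjusted p under 0.05, with a median log2 fold change of -0.3. For erythroid genes, leaving out LT-HSC WT 1 gave 2 higher and 2 lower of 23 (median 0.09), and summing the close pair gave 0 higher and 0 lower of 23. The called member was Hbb-bt, an adult beta globin with near-identical copies that make its count uncertain (chr7:103812524-103813923), at 12.2, 51.9, 13.4 and 20.8 CPM in LT-HSC WT 1 to 4 and 2.49, 3.65, 2.71 and 1.8 CPM in CMP/GMP WT 1 to 4 (log2 fold change 3.02 ± 0.69, adjusted p = 0.0266). Klf1, the erythroid Krüppel-like factor, was at 0.199, 101, 103 and 16.3 CPM in LT-HSC WT 1 to 4 and 70.3, 113, 75.3 and 153 CPM in CMP/GMP WT 1 to 4, nearly absent from LT-HSC WT 1 alone. Hbb-bt missed the threshold without LT-HSC WT 2 or 4 or any of CMP/GMP WT 1 to 4, and with the pair summed (highest adjusted p = 0.101).

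Genes of basophils, mast cells and eosinophils had falls and no rises among their calls. Of 16, 8 were tested. At an adjusted p under 0.05, 0 (0%) were higher in LT-HSC and 2 (25%) lower, against 4.34% and 3.71% of all tested genes. The median log2 fold change was -4.55. In LT-HSC WT 2 to 4, 12, 12 and 14 of the 16 had no read. A member that passes the filter on low counts through CMP/GMP alone can only be lower in LT-HSC, so neither share nor median tests the list. For basophil and mast cell genes, leaving out LT-HSC WT 1 gave 0 higher and 5 lower of 8 (median -6.44), and summing the close pair gave 0 higher and 2 lower of 8. Hdc, which makes histamine (chr2:126593659-126624025), was at 0.498, 0, 2.6 and 0 CPM in LT-HSC WT 1 to 4 and 67.9, 116, 217 and 155 CPM in CMP/GMP WT 1 to 4 (log2 fold change -7.62 ± 1.38, adjusted p = 0.011). Cpa3, mast cell carboxypeptidase (chr3:20215616-20242209), was at 0.896, 4.09, 7.23 and 0 CPM in LT-HSC WT 1 to 4 and 178, 131, 122 and 132 CPM in CMP/GMP WT 1 to 4 (log2 fold change -5.69 ± 1.16, adjusted p = 0.0166). Mcpt8, a basophil protease (chr14:56082163-56085499), had 89.5 CPM in LT-HSC WT 1 and no read in the other 3, against 14.4, 11.1, 99.7 and 11.9 CPM in CMP/GMP WT 1 to 4. It passed without LT-HSC WT 1 (adjusted p = 0.00421) and not with it (adjusted p = 0.876). The summed list was 175, 18.8, 19.4 and 4.58 CPM in LT-HSC WT 1 to 4 and 388, 391, 801 and 433 CPM in CMP/GMP WT 1 to 4. Hdc and Cpa3 stayed past the threshold with each library left out and with the pair summed (highest adjusted p = 0.04987).

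Lymphoid priming genes likewise had falls and no rises. Of 17, 16 in the table, 12 were tested. At an adjusted p under 0.05, 0 (0%) were higher in LT-HSC and 3 (25%) lower, against 4.34% and 3.71% of all tested genes. The median log2 fold change was -1.55. For lymphoid priming genes, leaving out LT-HSC WT 1 gave 0 higher and 5 lower of 12 (median -1.58), and summing the close pair gave 0 higher and 1 lower of 12. Cd52, a small surface glycoprotein (chr4:134093538-134095073), was at 1.43 ± 0.59 CPM in LT-HSC and 19.4 ± 4.47 CPM in CMP/GMP (log2 fold change -3.76 ± 0.7, adjusted p = 0.0119). Il12a, a subunit of interleukin-12 (chr3:68690644-68698550), was at 19.2 ± 5.41 CPM in LT-HSC and 55.6 ± 3.34 CPM in CMP/GMP (log2 fold change -1.53 ± 0.34, adjusted p = 0.0243). Cd52 missed the threshold without CMP/GMP WT 2, and with the pair summed (highest adjusted p = 0.0735). Il12a missed the threshold without LT-HSC WT 4 or any of CMP/GMP WT 1 to 4, and with the pair summed (highest adjusted p = 0.104).

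Markers of other cells that a sort could carry over had 3 calls, 1 each in 3 of 5 lists. The share called lower was 16.7% of the tested late neutrophil genes and 16.7% of the tested macrophage markers, against 3.71% of all tested genes, and the share called higher was 14.3% of the tested stromal and endothelial markers, against 4.34%. With so few members tested, each share is 1 gene. Of 17 late neutrophil genes 6 passed the filter and 1 was called with 8 libraries, Itgam (CD11b; chr7:128062640-128118491), at 0.299, 0.0634, 0 and 0.0436 CPM in LT-HSC WT 1 to 4 and 7.36, 3.78, 11 and 7.74 CPM in CMP/GMP WT 1 to 4 (log2 fold change -6.38 ± 1.5, adjusted p = 0.0294). Their sum ran from 123 to 245 CPM in LT-HSC (157 in LT-HSC WT 1) and 86.7 to 207 CPM in CMP/GMP, and Ngp, a late granule protein, was at 0 in LT-HSC WT 1 and 2 and in every CMP/GMP library. Of 12 B cell markers 3 passed and none was called, with a sum of 5.23 to 50.8 CPM in LT-HSC (5.23 in LT-HSC WT 1) and 41.4 to 72.6 CPM in CMP/GMP. Cd79b, a B cell receptor chain, was at 5.23, 38.7, 38.2 and 38.9 CPM in LT-HSC WT 1 to 4 and 40.5, 48.9, 66.6 and 51.6 CPM in CMP/GMP WT 1 to 4, Vpreb1, a surrogate light chain, at 0, 4.56, 3.39 and 0 CPM in LT-HSC WT 1 to 4 and 0.721, 5.08, 1.54 and 2.65 CPM in CMP/GMP WT 1 to 4, and Cd22 at 0 in every library. Of 13 T and NK cell markers 2 passed, neither called, with a sum of 1.69 to 39 CPM in LT-HSC (1.69 in LT-HSC WT 1) and 4.76 to 29.8 CPM in CMP/GMP. Lck, a T cell kinase, was at 0.299, 22.6, 23.9 and 23.3 CPM in LT-HSC WT 1 to 4 and 7.18, 14.7, 4.15 and 23.1 CPM in CMP/GMP WT 1 to 4, Klrb1c, the NK receptor NK1.1, at 1.39, 13.4, 14.2 and 5.93 CPM in LT-HSC WT 1 to 4 and 4.45, 2.56, 0.602 and 2.87 CPM in CMP/GMP WT 1 to 4, and Cd3e and Cd8a at 0 in every library. LT-HSC WT 1 had the lowest stem-cell value of Cd79b, Lck and Klrb1c. Of 12 macrophage markers 6 passed and 1 was called, Vcam1, an adhesion molecule with no read in LT-HSC and 3.72, 0.587, 3.85 and 0.974 CPM in CMP/GMP WT 1 to 4. Their sum was 7.17 to 86.7 CPM in LT-HSC (7.17 in LT-HSC WT 1) and 25.7 to 53.9 CPM in CMP/GMP. Of 12 stromal and endothelial markers 7 passed and 1 was called, Emcn, an endothelial sialomucin also known from stem cells, at 8.76, 24.9, 42.2 and 22 CPM in LT-HSC WT 1 to 4 and 0.24, 1.66, 4.09 and 2.09 CPM in CMP/GMP WT 1 to 4 (log2 fold change 3.41 ± 0.89, adjusted p = 0.0423). Their sum was 87.6 to 188 CPM in LT-HSC (188 in LT-HSC WT 1) and 157 to 209 CPM in CMP/GMP, and Cdh5 and Col3a1 were at 0 in every library. The part of such cells in the differences above was not tested. Itgam missed the threshold without LT-HSC WT 2 or 4 or any of CMP/GMP WT 1 to 4, and with the pair summed (highest adjusted p = 0.104). Vcam1 missed the threshold without LT-HSC WT 3 or 4 or any of CMP/GMP WT 1 to 4, and with the pair summed (highest adjusted p = 0.0938). Emcn missed the threshold without LT-HSC WT 2, 3 or 4 or any of CMP/GMP WT 1 to 4, and with the pair summed (highest adjusted p = 0.141).

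DNA replication genes had 16 falls and no rise. Of 30, 30 were tested, 0 (0%) higher and 16 (53.3%) lower in LT-HSC at an adjusted p under 0.05, with a median log2 fold change of -1.25. For DNA replication genes, leaving out LT-HSC WT 1 gave 0 higher and 19 lower of 30 (median -1.21), and summing the close pair gave 0 higher and 8 lower of 30. The share called lower was 53.3%, against 3.71% of all tested genes. Summed, the list was 3492, 4535, 2623 and 3303 CPM in LT-HSC WT 1 to 4 and 7331, 7626, 7465 and 8741 CPM in CMP/GMP WT 1 to 4, without overlap. Rrm2 and Rrm1 encode the subunits of ribonucleotide reductase, which makes deoxynucleotides. Rrm2 (chr12:24708254-24714146) was at 64.1, 44.5, 41.1 and 33.9 CPM in LT-HSC WT 1 to 4 and 184, 224, 206 and 218 CPM in CMP/GMP WT 1 to 4 (log2 fold change -2.35 ± 0.27, adjusted p = 0.00185). Rrm1 (chr7:102441695-102469771) was at 146 ± 30.1 CPM in LT-HSC and 508 ± 69.3 CPM in CMP/GMP (log2 fold change -1.8 ± 0.22, adjusted p = 0.00243). Mcm6, part of the replicative helicase (chr1:128331575-128359705), was at 269, 413, 273 and 290.2 CPM in LT-HSC WT 1 to 4 and 886, 1062, 1005 and 1198 CPM in CMP/GMP WT 1 to 4 (log2 fold change -1.91 ± 0.22, adjusted p = 0.00181). Cdc6, its loader (chr11:98907709-98923942), was at 31.8 ± 17.3 CPM in LT-HSC and 104 ± 21.2 CPM in CMP/GMP (log2 fold change -1.71 ± 0.37, adjusted p = 0.0221). For Mcm6 and Cdc6 the highest stem-cell library was LT-HSC WT 2. Rrm2, Rrm1 and Mcm6 stayed past the threshold with each library left out and with the pair summed (highest adjusted p = 0.0129). Cdc6 missed the threshold without LT-HSC WT 3 or 4 or any of CMP/GMP WT 1 to 4, and with the pair summed (highest adjusted p = 0.0716).

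Mitotic genes had 3 falls and no rise, a share lower of 13% against 3.71% of all tested genes. None was called with the pair summed, where 0.8% of all tested genes were called lower. Of 23, 23 were tested, 0 (0%) higher and 3 (13%) lower in LT-HSC at an adjusted p under 0.05, with a median log2 fold change of -0.67. For mitotic genes, leaving out LT-HSC WT 1 gave 0 higher and 6 lower of 23 (median -0.72), and summing the close pair gave 0 higher and 0 lower of 23. The calls were Aurkb, the kinase of the chromosomal passenger complex (chr11:69045624-69051664; 91 ± 45.8 CPM in LT-HSC and 237 ± 37.9 CPM in CMP/GMP; log2 fold change -1.38 ± 0.35, adjusted p = 0.0379), Kif23, a kinesin of cytokinesis (chr9:61917277-61946810; 38.9 ± 11 CPM in LT-HSC and 87.8 ± 11.8 CPM in CMP/GMP; log2 fold change -1.18 ± 0.29, adjusted p = 0.0342), and Ccnb1, the mitotic cyclin B1 (chr13:100778739-100786486; 127 ± 39.2 CPM in LT-HSC and 282 ± 36.6 CPM in CMP/GMP; log2 fold change -1.15 ± 0.26, adjusted p = 0.0231). The summed list overlapped, at 3487, 3197, 1348 and 2455 CPM in LT-HSC WT 1 to 4 and 3564, 3719.6, 2948 and 3961 CPM in CMP/GMP WT 1 to 4. Aurkb missed the threshold without LT-HSC WT 3 or 4 or any of CMP/GMP WT 1 to 4, and with the pair summed (highest adjusted p = 0.117). Kif23 missed the threshold without LT-HSC WT 2 or 3 or any of CMP/GMP WT 1 to 4, and with the pair summed (highest adjusted p = 0.135). Ccnb1 missed the threshold without LT-HSC WT 3 or 4 or CMP/GMP WT 1, 2 or 4, and with the pair summed (highest adjusted p = 0.0898).

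Of 20 genes of G1 cyclins, their kinases and quiescence, 20 were tested. At an adjusted p under 0.05, 3 (15%) were higher in LT-HSC and 0 (0%) lower, against 4.34% and 3.71% of all tested genes. The median log2 fold change was 0.54. For this set, leaving out LT-HSC WT 1 gave 5 higher and 2 lower of 20 (median 0.47), and summing the close pair gave 1 higher and 0 lower of 20. Txnip, an inhibitor of thioredoxin and of glucose uptake (chr3:96557957-96561857), was at 383, 705, 652 and 597 CPM in LT-HSC WT 1 to 4 and 157, 136, 125 and 212 CPM in CMP/GMP WT 1 to 4 (log2 fold change 1.72 ± 0.25, adjusted p = 0.00444). Foxo1, a forkhead factor of quiescence (chr3:52268337-52350109), was at 31.7 ± 19.9 CPM in LT-HSC and 5.68 ± 1.96 CPM in CMP/GMP (log2 fold change 2.48 ± 0.59, adjusted p = 0.0302). Tob1, an antiproliferative adaptor (chr11:94209842-94215495), was at 16.8 ± 6.6 CPM in LT-HSC and 2.98 ± 0.93 CPM in CMP/GMP (log2 fold change 2.49 ± 0.67, adjusted p = 0.0461). Txnip stayed past the threshold with each library left out and with the pair summed (highest adjusted p = 0.027). Foxo1 missed the threshold without LT-HSC WT 2 or any of CMP/GMP WT 1 to 4, and with the pair summed (highest adjusted p = 0.109). Tob1 missed the threshold without LT-HSC WT 2, 3 or 4 or any of CMP/GMP WT 1 to 4, and with the pair summed (highest adjusted p = 0.167). Of 69 clustered histone genes, 60 passed the filter and none was called, with 13 positive and a median log2 fold change of -0.81. Hist1h4d was at 105 ± 20.7 CPM in LT-HSC and 114 ± 30.5 CPM in CMP/GMP, and Hist1h2ae at 59.9 ± 27.7 CPM in LT-HSC and 109 ± 28 CPM in CMP/GMP. Histone mRNAs mostly lack polyA tails and have near-identical copies, so these levels are uncertain.

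Ribosome biogenesis genes had a few falls with 8 libraries. None was called with the pair summed, where 0.8% of all tested genes were called lower. Of 24 ribosome biogenesis genes, 24 were tested. At an adjusted p under 0.05, 0 (0%) were higher in LT-HSC and 5 (20.8%) lower, against 4.34% and 3.71% of all tested genes. The median log2 fold change was -0.78. For ribosome biogenesis genes, leaving out LT-HSC WT 1 gave 0 higher and 12 lower of 24 (median -0.81), and summing the close pair gave 0 higher and 0 lower of 24. Dkc1, the pseudouridine synthase dyskerin (chrX:75095854-75109776), was at 316 ± 25.3 CPM in LT-HSC and 584 ± 22.6 CPM in CMP/GMP (log2 fold change -0.89 ± 0.17, adjusted p = 0.0146). Pes1, a nucleolar factor of the large subunit (chr11:3963975-3980004), was at 91.3 ± 34.6 CPM in LT-HSC and 202 ± 18.6 CPM in CMP/GMP (log2 fold change -1.15 ± 0.28, adjusted p = 0.0337). Mybbp1a and Wdr43, nucleolar proteins, had log2 fold changes of -1.1 ± 0.3 (adjusted p = 0.0491) and -1.02 ± 0.25 (adjusted p = 0.0356). Dkc1 missed the threshold without CMP/GMP WT 2 or 4, and with the pair summed (highest adjusted p = 0.0735). Pes1 missed the threshold without LT-HSC WT 2 or 4 or any of CMP/GMP WT 1 to 4, and with the pair summed (highest adjusted p = 0.111). Mybbp1a missed the threshold without LT-HSC WT 1 to 4 or CMP/GMP WT 1, 2 or 4, and with the pair summed (highest adjusted p = 0.162). Wdr43 missed the threshold without LT-HSC WT 2, 3 or 4 or CMP/GMP WT 1, 2 or 4, and with the pair summed (highest adjusted p = 0.13). None of 81 tested cytosolic ribosomal protein genes was called. Rplp0 was at 3153 ± 621 CPM in LT-HSC and 4285 ± 312 CPM in CMP/GMP and Rpl13 at 3589 ± 654 CPM in LT-HSC and 3183 ± 534 CPM in CMP/GMP. Their summed level, 117691, 86177, 71017 and 73564 CPM in LT-HSC WT 1 to 4 and 84146, 76481, 80256 and 61788 CPM in CMP/GMP WT 1 to 4, was highest in LT-HSC WT 1.

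Endoplasmic reticulum genes that fold and export proteins had falls and no rise with 8 libraries. Of 26, 26 were tested. At an adjusted p under 0.05, 0 (0%) were higher in LT-HSC and 11 (42.3%) lower, against 4.34% and 3.71% of all tested genes. The median log2 fold change was -0.97. For folding genes, leaving out LT-HSC WT 1 gave 1 higher and 17 lower of 26 (median -1.04), and summing the close pair gave 0 higher and 7 lower of 26. Their sum was 8645, 8027, 9259 and 6988 CPM in LT-HSC WT 1 to 4 and 12464, 13105, 16139 and 13595 CPM in CMP/GMP WT 1 to 4, without overlap. Spcs3, a signal peptidase subunit (chr8:54520433-54529998), was at 96.9, 108, 136 and 105 CPM in LT-HSC WT 1 to 4 and 280.4, 407, 403 and 414 CPM in CMP/GMP WT 1 to 4 (log2 fold change -1.93 ± 0.22, adjusted p = 0.00203). Calr, the chaperone calreticulin (chr8:84842088-84846931), was at 1033, 609.8, 458 and 543 CPM in LT-HSC WT 1 to 4 and 1789.6, 1499.5, 2004 and 1777 CPM in CMP/GMP WT 1 to 4 (log2 fold change -1.58 ± 0.28, adjusted p = 0.00984), with LT-HSC WT 1 the highest stem-cell library. Sdf2l1 (chr16:17130138-17132383; log2 fold change -1.83 ± 0.33, adjusted p = 0.0102), Pdia4 (chr6:47796141-47813512; log2 fold change -1.59 ± 0.22, adjusted p = 0.00371) and Hyou1 (chr9:44379490-44392369; log2 fold change -1.62 ± 0.36, adjusted p = 0.0235) encode a cofactor of the chaperone BiP, a disulphide isomerase and an HSP70-type chaperone. Spcs3, Calr, Sdf2l1 and Pdia4 stayed past the threshold with each library left out and with the pair summed (highest adjusted p = 0.0383). Hyou1 missed the threshold without LT-HSC WT 2 or 4 or CMP/GMP WT 2, 3 or 4, and with the pair summed (highest adjusted p = 0.0835).

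Respiratory chain genes also had falls and no rise. Of 36 respiratory chain subunits, 36 were tested. At an adjusted p under 0.05, 0 (0%) were higher in LT-HSC and 8 (22.2%) lower, against 4.34% and 3.71% of all tested genes. The median log2 fold change was -0.67. For respiratory chain subunits, leaving out LT-HSC WT 1 gave 0 higher and 19 lower of 36 (median -0.78), and summing the close pair gave 0 higher and 1 lower of 36. Summed, they were 10490.03, 11741, 9550.01 and 9726 CPM in LT-HSC WT 1 to 4 and 15586, 16347, 15127 and 15198 CPM in CMP/GMP WT 1 to 4, without overlap. Ndufa10 and Ndufv2 belong to complex I, Sdhb to complex II and Atp5a1 and Atp5b to the ATP synthase. Sdhb (chr4:140961271-140979198) was at 205 ± 26 CPM in LT-HSC and 429.9 ± 55.5 CPM in CMP/GMP (log2 fold change -1.07 ± 0.2, adjusted p = 0.0119). Ndufa10 (chr1:92439486-92473825) was at 139.9 ± 52.9 CPM in LT-HSC and 354 ± 56.9 CPM in CMP/GMP (log2 fold change -1.34 ± 0.3, adjusted p = 0.0243). Ndufv2 (chr17:66078795-66101559) was at 240.1 ± 50.4 CPM in LT-HSC and 495 ± 115 CPM in CMP/GMP (log2 fold change -1.05 ± 0.24, adjusted p = 0.0247). Atp5a1 was at 745 ± 187 CPM in LT-HSC and 1659 ± 170.4 CPM in CMP/GMP (log2 fold change -1.16 ± 0.22, adjusted p = 0.0127). Atp5b (chr10:128083307-128090388) was at 1420.3 ± 359.7 CPM in LT-HSC and 2931 ± 366 CPM in CMP/GMP (log2 fold change -1.04 ± 0.23, adjusted p = 0.0243). Sdhb missed the threshold without CMP/GMP WT 2 (highest adjusted p = 0.0575). Ndufa10 missed the threshold without LT-HSC WT 3 or 4 or CMP/GMP WT 2, 3 or 4, and with the pair summed (highest adjusted p = 0.0899). Ndufv2 missed the threshold without LT-HSC WT 3 or 4 or any of CMP/GMP WT 1 to 4, and with the pair summed (highest adjusted p = 0.101). Atp5a1 missed the threshold without CMP/GMP WT 2 or 4, and with the pair summed (highest adjusted p = 0.0554). Atp5b missed the threshold without LT-HSC WT 4 or CMP/GMP WT 1, 2 or 4, and with the pair summed (highest adjusted p = 0.0888).

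Glycolysis genes were mixed. Of 24, 22 were tested. At an adjusted p under 0.05, 2 (9.09%) were higher in LT-HSC and 4 (18.2%) lower, against 4.34% and 3.71% of all tested genes. The median log2 fold change was -0.44. For glycolysis genes, leaving out LT-HSC WT 1 gave 5 higher and 6 lower of 22 (median -0.33), and summing the close pair gave 1 higher and 0 lower of 22. Pgam1, phosphoglycerate mutase (chr19:41911871-41918665), was at 33.4, 219.98, 172 and 157 CPM in LT-HSC WT 1 to 4 and 465, 389.8, 611 and 532 CPM in CMP/GMP WT 1 to 4 (log2 fold change -1.96 ± 0.45, adjusted p = 0.0271). Ldha, lactate dehydrogenase (chr7:46842274-46855627), was at 1039, 1833, 1481 and 1340.1 CPM in LT-HSC WT 1 to 4 and 3549, 3483, 1942 and 3403 CPM in CMP/GMP WT 1 to 4 (log2 fold change -1.3 ± 0.26, adjusted p = 0.0148). Higher were Slc2a3, a glucose transporter (chr6:122727809-122802363; 118 ± 39.7 CPM in LT-HSC and 30.4 ± 7.54 CPM in CMP/GMP; log2 fold change 1.96 ± 0.34, adjusted p = 0.00883), and Pdk1, a kinase that shuts pyruvate dehydrogenase (chr2:71873215-71903858; 102 ± 40.5 CPM in LT-HSC and 31.5 ± 5.09 CPM in CMP/GMP; log2 fold change 1.69 ± 0.34, adjusted p = 0.0161). Slc2a3 stayed past the threshold with each library left out and with the pair summed (highest adjusted p = 0.0396). Pgam1 missed the threshold without LT-HSC WT 3 or 4 or any of CMP/GMP WT 1 to 4, and with the pair summed (highest adjusted p = 0.0781). Ldha missed the threshold without LT-HSC WT 4 or CMP/GMP WT 1, 2 or 4, and with the pair summed (highest adjusted p = 0.0659). Pdk1 missed the threshold without LT-HSC WT 4 or CMP/GMP WT 2 or 4, and with the pair summed (highest adjusted p = 0.0746). Among called, non-overlapping genes, by the naming rule given below, the 6 largest falls in CPM were Ldha, Atp5b, Calr, Hspa8, Cfl1 and Oaz1. Mpo, Elane and Ctsg were not called with 8 libraries and so were not ranked. Hspa8, a constitutive chaperone (chr9:40801276-40805202), was at 1967 ± 246 CPM in LT-HSC and 4199 ± 759.7 CPM in CMP/GMP (log2 fold change -1.09 ± 0.21, adjusted p = 0.0127). Cfl1, the actin regulator cofilin (chr19:5490455-5494031), was at 1669.6 ± 290.4 CPM in LT-HSC and 3095 ± 238 CPM in CMP/GMP (log2 fold change -0.89 ± 0.2, adjusted p = 0.0226). Oaz1, the ornithine decarboxylase antizyme (chr10:80826656-80829290), was at 922 ± 268 CPM in LT-HSC and 2102 ± 313 CPM in CMP/GMP (log2 fold change -1.19 ± 0.26, adjusted p = 0.0221). Hspa8 missed the threshold without CMP/GMP WT 2 or 4, and with the pair summed (highest adjusted p = 0.0616). Cfl1 missed the threshold without LT-HSC WT 4 or any of CMP/GMP WT 1 to 4, and with the pair summed (highest adjusted p = 0.099). Oaz1 missed the threshold without LT-HSC WT 4 or CMP/GMP WT 1, 2 or 3, and with the pair summed (highest adjusted p = 0.0898).

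Abcb1a, a drug efflux pump (chr5:8567091-8748575), was the only one of 9 tested dye efflux transporters called with 8 libraries (11.1%, against 4.34% of all tested genes called higher), at 6.97, 7.23, 14.8 and 3.34 CPM in LT-HSC WT 1 to 4 and 0.0901, 0.336, 0 and 0.243 CPM in CMP/GMP WT 1 to 4 (log2 fold change 5.39 ± 1.43, adjusted p = 0.0441). Without LT-HSC WT 1, 3 of 9 were called, all higher. Abcb1a missed the threshold without LT-HSC WT 2, 3 or 4 or any of CMP/GMP WT 1 to 4, and with the pair summed (highest adjusted p = 0.136).

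**Figure D4:**
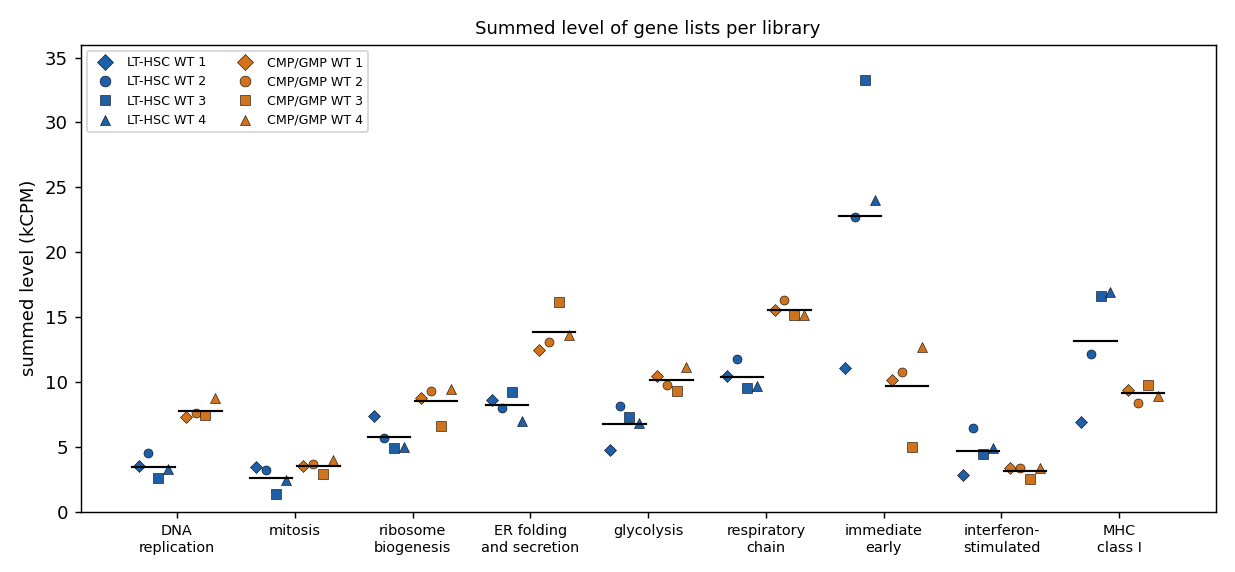
Summed level of the members of 9 gene lists in each library in kilo-CPM (kCPM), blue for LT-HSC and orange for CMP/GMP, with a line at each group's mean. The groups do not overlap for DNA replication, endoplasmic reticulum, glycolysis and respiratory chain genes, and LT-HSC WT 1 sits within the CMP/GMP range for immediate early genes.

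Signals and handling induce immediate early genes within minutes. In CPM, a scale not corrected for gene length, they held 3 of the 6 largest rises among called, non-overlapping genes. Of 23, 22 were tested. At an adjusted p under 0.05, 7 (31.8%) were higher in LT-HSC and 1 (4.55%) lower, against 4.34% and 3.71% of all tested genes. The median log2 fold change was 0.84. For immediate early and stress genes, leaving out LT-HSC WT 1 gave 7 higher and 1 lower of 22 (median 0.75), and summing the close pair gave 6 higher and 0 lower of 22. Jun, a subunit of AP-1 (chr4:95049036-95052222), was at 1259, 2204, 6697 and 4692 CPM in LT-HSC WT 1 to 4 and 602, 289, 265 and 331 CPM in CMP/GMP WT 1 to 4 (log2 fold change 3.14 ± 0.5, adjusted p = 0.0063). Nr4a1, an orphan nuclear receptor (chr15:101253902-101274795), was at 1194, 2886, 2793 and 2464 CPM in LT-HSC WT 1 to 4 and 312, 201, 59 and 254 CPM in CMP/GMP WT 1 to 4 (log2 fold change 3.32 ± 0.48, adjusted p = 0.00425). Its paralogue Nr4a2 (chr2:57106830-57124003) was at 327, 101, 126 and 213 CPM in LT-HSC WT 1 to 4 and 23.4, 17.9, 6.86 and 13.9 CPM in CMP/GMP WT 1 to 4 (log2 fold change 3.46 ± 0.49, adjusted p = 0.00387). Egr1, a zinc-finger factor (chr18:34861207-34864956), was at 980.04, 1078, 2247 and 1539 CPM in LT-HSC WT 1 to 4 and 265, 212, 90.6 and 229 CPM in CMP/GMP WT 1 to 4 (log2 fold change 2.7 ± 0.38, adjusted p = 0.00368). Klf2 (chr8:72319062-72321654) was at 383, 93.3, 70.9 and 108 CPM in LT-HSC WT 1 to 4 and 13.2, 26.3, 5.24 and 18.8 CPM in CMP/GMP WT 1 to 4 (log2 fold change 3.21 ± 0.66, adjusted p = 0.0173). Nfkbia, the NF-kB inhibitor, was the member called lower, at 171, 369, 323 and 267 CPM in LT-HSC WT 1 to 4 and 669.6, 697, 375 and 691 CPM in CMP/GMP WT 1 to 4 (log2 fold change -1.29 ± 0.29, adjusted p = 0.0239). Tsc22d1, a leucine-zipper protein (chr14:76414961-76507765; 989 ± 187 CPM in LT-HSC and 235 ± 35.4 CPM in CMP/GMP; log2 fold change 2.08 ± 0.22, adjusted p = 0.00174), and Ctla2a, a cathepsin inhibitor with a near-identical paralogue (chr13:60934155-60936625; 1444 ± 168 CPM in LT-HSC and 626 ± 256 CPM in CMP/GMP; log2 fold change 1.2 ± 0.33, adjusted p = 0.0484), completed the 6 largest rises in CPM with Jun, Nr4a1, Egr1 and Lmo2. Jun, Nr4a1, Nr4a2, Egr1 and Tsc22d1 stayed past the threshold with each library left out and with the pair summed (highest adjusted p = 0.0326). Klf2 missed the threshold without CMP/GMP WT 1 or 4, and with the pair summed (highest adjusted p = 0.0608). Nfkbia missed the threshold without LT-HSC WT 4 or CMP/GMP WT 1, 2 or 4, and with the pair summed (highest adjusted p = 0.0898). Ctla2a missed the threshold without LT-HSC WT 2, 3 or 4 or CMP/GMP WT 1, 2 or 4, and with the pair summed (highest adjusted p = 0.124). The sources used here do not give the time from sort to lysis, and its part was not tested.

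Interferon-stimulated genes had 3 calls, all rises near the threshold. Of 40, 36 were tested. At an adjusted p under 0.05, 3 (8.33%) were higher in LT-HSC and 0 (0%) lower, against 4.34% and 3.71% of all tested genes. The median log2 fold change was 0.75. For interferon-stimulated genes, leaving out LT-HSC WT 1 gave 11 higher and 0 lower of 37 (median 0.92), and summing the close pair gave 0 higher and 0 lower of 37. Igtp, an interferon-induced GTPase (chr11:58199556-58207592), was at 14.8, 47.5, 149 and 177 CPM in LT-HSC WT 1 to 4 and 25.7, 11.1, 10.7 and 14.9 CPM in CMP/GMP WT 1 to 4 (log2 fold change 2.44 ± 0.67, adjusted p = 0.04999), and LT-HSC WT 1 was within the CMP/GMP range. Ifih1, the RNA sensor MDA5 (chr2:62595618-62646255), was at 52.3 ± 13 CPM in LT-HSC and 20.9 ± 3.75 CPM in CMP/GMP (log2 fold change 1.32 ± 0.34, adjusted p = 0.0406). Ifitm3, a membrane protein that blocks viral entry (chr7:141009590-141010744), was at 854 ± 220.5 CPM in LT-HSC and 448 ± 108 CPM in CMP/GMP (log2 fold change 0.93 ± 0.25, adjusted p = 0.0484). Igtp and Ifitm3 missed the threshold without LT-HSC WT 2, 3 or 4 or any of CMP/GMP WT 1 to 4, and with the pair summed (highest adjusted p = 0.15 and 0.147, in that order). Ifih1 missed the threshold without LT-HSC WT 3 or 4 or any of CMP/GMP WT 1 to 4, and with the pair summed (highest adjusted p = 0.153).

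Of 16 MHC class I genes, 16 were tested. At an adjusted p under 0.05, 3 (18.8%) were higher in LT-HSC and 1 (6.25%) lower, against 4.34% and 3.71% of all tested genes. The median log2 fold change was 0.37. For MHC class I genes, leaving out LT-HSC WT 1 gave 5 higher and 1 lower of 16 (median 0.53), and summing the close pair gave 0 higher and 0 lower of 16. Nlrc5, the class I transactivator (chr8:94434335-94527272), was at 66.7 ± 13.6 CPM in LT-HSC and 18.8 ± 12.5 CPM in CMP/GMP (log2 fold change 1.83 ± 0.47, adjusted p = 0.0382). H2-T22 and H2-Q7, non-classical class I molecules with near-identical relatives that make their counts uncertain, were at 86.4 ± 19.3 CPM in LT-HSC and 30.9 ± 5.11 CPM in CMP/GMP (log2 fold change 1.49 ± 0.29, adjusted p = 0.0142) and at 412 ± 149 CPM in LT-HSC and 149 ± 44.7 CPM in CMP/GMP (log2 fold change 1.47 ± 0.32, adjusted p = 0.023). Psmb8, an immunoproteasome subunit (chr17:34198195-34201454), was lower, at 450.04 ± 82.1 CPM in LT-HSC and 886 ± 78 CPM in CMP/GMP (log2 fold change -0.98 ± 0.2, adjusted p = 0.0166). Nlrc5 missed the threshold without LT-HSC WT 2, 3 or 4 or CMP/GMP WT 2, 3 or 4, and with the pair summed (highest adjusted p = 0.132). H2-T22 and Psmb8 missed the threshold without CMP/GMP WT 2 or 4, and with the pair summed (highest adjusted p = 0.0651 and 0.063, in that order). H2-Q7 missed the threshold without LT-HSC WT 3 or 4 or CMP/GMP WT 2, 3 or 4, and with the pair summed (highest adjusted p = 0.0898). None of 15 tested genes of cytosolic DNA sensing was called with 8 libraries, where 4.34% and 3.71% of all genes were. Without LT-HSC WT 1, 0 were called higher and 2 (13.3%) lower, against 7.43% and 7.6% of all tested genes. Tmem173, which encodes STING and was chosen after its values were seen (chr18:35733678-35740554), was at 25.5, 87.7, 108 and 85.2 CPM in LT-HSC WT 1 to 4 and 74.8, 93.3, 113 and 132 CPM in CMP/GMP WT 1 to 4 (log2 fold change -0.61 ± 0.39, adjusted p = 0.389). The most abundant members, Rnaseh2a and Rnaseh2c, subunits of ribonuclease H2, were at 97.7 ± 10.2 CPM in LT-HSC and 151 ± 2.51 CPM in CMP/GMP and at 102 ± 38.6 CPM in LT-HSC and 85.5 ± 9.13 CPM in CMP/GMP. Rnaseh2a was called lower in edgeR without LT-HSC WT 1 (adjusted p = 0.0392).

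Dnmt3a, the gene deleted elsewhere in the study (chr12:3801559-3914443), was at 229.5, 77.2, 109 and 104 CPM in LT-HSC WT 1 to 4 and 55.7, 66.6, 49.8 and 83 CPM in CMP/GMP WT 1 to 4. The groups overlapped, because CMP/GMP WT 4 exceeded LT-HSC WT 2, and the difference did not pass (log2 fold change 0.87 ± 0.36, adjusted p = 0.182). Of 15 genes of the DNA methylation machinery, 14 were tested. At an adjusted p under 0.05, 1 (7.14%) was higher in LT-HSC and 3 (21.4%) lower, against 4.34% and 3.71% of all tested genes. The median log2 fold change was 0.26. For DNA methylation machinery, leaving out LT-HSC WT 1 gave 1 higher and 3 lower of 14 (median 0.11), and summing the close pair gave 0 higher and 2 lower of 14. Uhrf1, which recruits the maintenance methyltransferase (chr17:56303337-56323486), was at 158, 178, 77.4 and 132 CPM in LT-HSC WT 1 to 4 and 362, 321, 259.6 and 478 CPM in CMP/GMP WT 1 to 4 (log2 fold change -1.55 ± 0.3, adjusted p = 0.0136). Dnmt1, that methyltransferase (chr9:20907206-20959888), was at 179.6, 149, 129.7 and 189 CPM in LT-HSC WT 1 to 4 and 377, 274, 285 and 359 CPM in CMP/GMP WT 1 to 4 (log2 fold change -1.17 ± 0.21, adjusted p = 0.0114). Apex1, an endonuclease of base excision repair (chr14:50924949-50927188), was at 217 ± 27.3 CPM in LT-HSC and 374 ± 34.8 CPM in CMP/GMP (log2 fold change -0.78 ± 0.19, adjusted p = 0.0337). Tet1, a dioxygenase that oxidises methylcytosine (chr10:62804570-62887469), was higher, at 110.04, 55.3, 68.2 and 72.8 CPM in LT-HSC WT 1 to 4 and 29.9, 24.1, 31.4 and 28.7 CPM in CMP/GMP WT 1 to 4 (log2 fold change 1.26 ± 0.31, adjusted p = 0.035). Uhrf1 and Dnmt1 missed the threshold without CMP/GMP WT 4 (highest adjusted p = 0.0578 and 0.052, in that order). Apex1 missed the threshold without LT-HSC WT 2, 3 or 4 or any of CMP/GMP WT 1 to 4, and with the pair summed (highest adjusted p = 0.134). Tet1 missed the threshold without LT-HSC WT 3 or 4 or any of CMP/GMP WT 1 to 4, and with the pair summed (highest adjusted p = 0.134).

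Reads from transposable elements made up more of the stem-cell libraries. Per 100 gene reads, TE reads were 12.4, 4.16, 5.78 and 6.5 in LT-HSC WT 1 to 4 and 3.85, 3.79, 3.34 and 3.94 in CMP/GMP WT 1 to 4. The means were 7.21 ± 3.59 and 3.73 ± 0.269 (SD, n = 4 each), and every LT-HSC library exceeded every CMP/GMP library. A two-sided exact permutation test gave p = 0.0286, the smallest that 4 against 4 libraries can give. LT-HSC WT 1 carried much of the gap: without it the stem-cell mean was 5.48 ± 1.2 and the difference fell from 3.48 to 1.75 reads per 100 (exact permutation p = 0.0286, again the smallest possible). Without any 1 of the CMP/GMP libraries, or with CMP/GMP WT 2 and 4 summed, the exact permutation p was 0.0571. LT-HSC WT 1, the library with the myeloid RNA and the fewest gene reads, was also the highest for TE, and the part of these features in the TE level was not tested.

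The groups were apart in 9 of 10 totals. SINEs, short elements copied by the machinery of LINEs, were the largest class, and their reads per 100 gene reads were 7.76, 2.26, 3.15 and 3.44 in LT-HSC WT 1 to 4 and 2.14, 2.19, 1.87 and 2.26 in CMP/GMP WT 1 to 4. LT-HSC WT 2 barely exceeded CMP/GMP WT 4. LINEs, which encode their own reverse transcriptase, were at 2.16, 0.833, 1.12 and 1.36 in LT-HSC WT 1 to 4 and 0.735, 0.672, 0.624 and 0.662 in CMP/GMP WT 1 to 4, and their L1 family at 1.96, 0.75, 1 and 1.22 in LT-HSC WT 1 to 4 and 0.665, 0.604, 0.561 and 0.587 in CMP/GMP WT 1 to 4. LTR elements, remnants of retroviruses, were at 1.83, 0.814, 1.11 and 1.25 in LT-HSC WT 1 to 4 and 0.74, 0.715, 0.633 and 0.801 in CMP/GMP WT 1 to 4. Among these, the ERVL-MaLR family was at 0.824, 0.368, 0.496 and 0.57 in LT-HSC WT 1 to 4 and 0.288, 0.282, 0.269 and 0.323 in CMP/GMP WT 1 to 4, and ERVK at 0.661, 0.278, 0.408 and 0.445 in LT-HSC WT 1 to 4 and 0.261, 0.228, 0.226 and 0.25 in CMP/GMP WT 1 to 4. DNA transposons were at 0.534, 0.194, 0.297 and 0.315 in LT-HSC WT 1 to 4 and 0.186, 0.161, 0.154 and 0.168 in CMP/GMP WT 1 to 4. For all TE, LINE, L1, SINE, LTR, ERVK, ERVL, ERVL-MaLR and DNA elements the groups did not overlap (two-sided exact permutation p = 0.0286 each, 0.0318 after Benjamini-Hochberg adjustment over 10 totals). Some totals are part of others, so these are not 9 independent results. Single classes were not tested with CMP/GMP WT 2 and 4 summed. ERV1 was the exception, at 0.142, 0.084, 0.0851 and 0.104 in LT-HSC WT 1 to 4 and 0.122, 0.139, 0.0728 and 0.155 in CMP/GMP WT 1 to 4 (exact permutation p = 0.4), and 3 of the 4 CMP/GMP libraries exceeded LT-HSC WT 2 to 4.

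**Figure D5:**
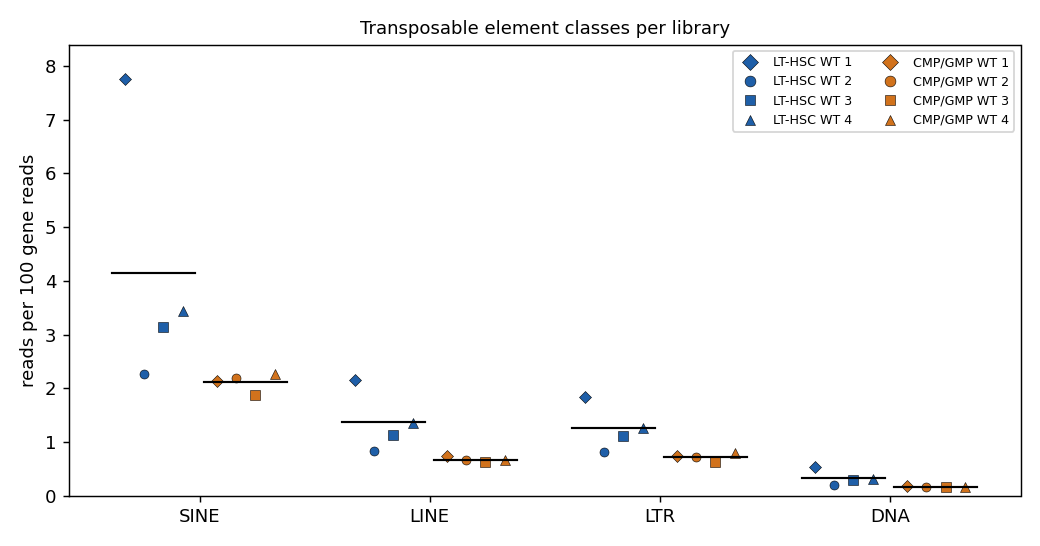
Reads of 4 classes of transposable element per 100 gene reads in each library, blue for LT-HSC and orange for CMP/GMP, with a line at each group's mean. LT-HSC WT 1 is the highest in every class, and LT-HSC WT 2 lies just above the CMP/GMP libraries.

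By subfamily, edgeR called 0 of 915 tested (0%) with 8 libraries. At an unadjusted p under 0.05 there were 332, of them 320 higher in LT-HSC, and the groups did not overlap for 291 (31.8%), 281 of them higher. DESeq2 called 238, 233 of them higher. Without LT-HSC WT 1, 52 of 939 (5.54%) were called higher and 7 (0.745%) lower, and without LT-HSC WT 2, 345 were called, 334 higher. The median log2 fold change was 0.79 over 915 subfamilies, and 0.49 without LT-HSC WT 1. Scaled to TE reads instead of gene reads the median was 0.000432 and 1 subfamily was called, lower in LT-HSC, so directions for single subfamilies hold relative to gene reads. Of all 915 tested subfamilies, 795 had a positive log2 fold change, and the counts of single families are to be read against that share. Of the L1 subfamilies, 120 of 129 were positive and 19 were called higher without LT-HSC WT 1. Of ERVK, 211 of 250 were positive and 15 were called higher in that fit, and of ERVL-MaLR 81 of 87 and 7. Of ERV1, whose total overlapped between groups, 73 of 93 were positive with 8 libraries (median log2 fold change 0.532). In the fit without LT-HSC WT 1, 2 of ERV1 were called higher and 3 lower.

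Since none was called with 8 libraries, the subfamilies named were chosen after their values were seen. L1Md_F, a young L1 subfamily of the mouse, was at 22.8, 17.9, 34.1 and 34.6 CPM of gene reads in LT-HSC WT 1 to 4 and 8.89, 6.08, 5.93 and 5.74 in CMP/GMP WT 1 to 4 (log2 fold change 1.86 ± 0.35, adjusted p = 0.0571, and 1.91 ± 0.29, adjusted p = 0.0072 without LT-HSC WT 1). L1Md_T, another young L1 and more abundant, was at 456, 269, 399 and 522 CPM of gene reads in LT-HSC WT 1 to 4 and 179.7, 174, 149 and 177 in CMP/GMP WT 1 to 4 (log2 fold change 1.1 ± 0.29, adjusted p = 0.0786, and 1.02 ± 0.21, adjusted p = 0.0153 without it). L1ME3C, an old L1, was at 20.7, 8.11, 13.6 and 20.5 CPM of gene reads in LT-HSC WT 1 to 4 and 2.58, 3.38, 2.17 and 3.85 in CMP/GMP WT 1 to 4 (2.03 ± 0.35, adjusted p = 0.00867 without LT-HSC WT 1). MT-int, of the MaLR family, was even within groups, at 18, 17.9, 16.7 and 18.4 CPM of gene reads in LT-HSC WT 1 to 4 and 5.59, 5.69, 7.04 and 5.57 in CMP/GMP WT 1 to 4 (1.36 ± 0.26, adjusted p = 0.0139 without it). RMER6D and RMER19B of the ERVK family were higher without it by 1.53 ± 0.25, adjusted p = 0.0072, and 1.04 ± 0.22, adjusted p = 0.0177. Running the other way, MMVL30-int, the internal part of the VL30 retroelement, was at 194, 95.5, 166 and 63.8 CPM of gene reads in LT-HSC WT 1 to 4 and 485, 529, 218 and 596 in CMP/GMP WT 1 to 4 (log2 fold change -1.97 ± 0.42, adjusted p = 0.0571, and -2.26 ± 0.36, adjusted p = 0.0072 without LT-HSC WT 1). Its long terminal repeat RLTR6_Mm was at 90.4, 14.3, 11.1 and 5.13 CPM of gene reads in LT-HSC WT 1 to 4 and 55.3, 43.6, 20.7 and 40.3 in CMP/GMP WT 1 to 4, high in LT-HSC WT 1 (log2 fold change -0.54 ± 0.7, adjusted p = 0.578, and -2.16 ± 0.38, adjusted p = 0.00867 without it). Among TE silencing genes, 1 of 21 tested was called (4.76% higher, close to the 4.34% of all tested genes), Fam208a, which encodes the HUSH subunit TASOR (chr14:27423674-27483555). It was higher in LT-HSC, at 62.1, 28.3, 24.7 and 31.5 CPM in LT-HSC WT 1 to 4 and 9.28, 5.45, 7.53 and 4.55 CPM in CMP/GMP WT 1 to 4 (log2 fold change 2.29 ± 0.51, adjusted p = 0.0241). Fam208a missed the threshold without CMP/GMP WT 2, 3 or 4, and with the pair summed (highest adjusted p = 0.0989).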

How the data were processed

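The authors deposited raw read counts per gene and per transposable element subfamily, made per the submitters' processing notes with Trim Galore 0.6.7, HISAT2 and featureCounts 2.0.1 on mm10 (GRCm38). The sources used here do not give the strand setting, annotation or treatment of multi-mapping reads, so counts of overlapping, antisense and near-identical genes are uncertain, as is the split of reads among related elements. Of 40 gene columns, 8 that repeat column names were not used. Samples were grouped by their labels, and CMP/GMP WT 2 and 4, whose counts differed beyond sampling noise, were kept as 2 libraries. That difference does not show that they are separate samples.

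The main test was the quasi-likelihood test of edgeR 4.0.16 in R 4.3.3 on the 8 libraries, with TMM factors, the default filter on low counts (minimum 10, total 15) and Benjamini-Hochberg adjustment over all tested genes, at a threshold of 0.05. Element counts used the gene library sizes and factors. It was tested on simulated data. Totals of element reads were compared with an exact permutation test. Alternatives were limma 3.58.1, DESeq2 1.42.0, other scalings and filters, each library left out, the close pair summed and replicate as a block. A gene with no read in a group was given as a bound, the mean of the other group over a floor of 3 reads across that group. Single libraries can lie below this bound. It takes reads as independent, which was not tested.

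The members and the 32 gene lists were chosen with earlier results of these data known, so the shares called in the lists are descriptive. Genes were named by a rule: the targeted markers, the 10 largest fold changes and 6 largest CPM differences in each direction among called, non-overlapping genes of at least 5 CPM, and up to 4 called members per list, or the 2 most abundant of a list with no call. In its rankings the rule left out predicted-gene, RIKEN and LOC symbols. Mllt3, Fgd5, Irf8, Clec12a, Plac8, Cd48, Tmem173, Pf4, Klf1, Mcpt8, Prtn3, Ctsg, Cebpa, Csf1r, Nfkbia and the named elements fall outside it and were chosen after their values were seen. Some genes that the rule picks are not reported here. Of 35976 gene symbols, 32501 matched the RefSeq table of GRCm38.p6 by symbol and 1014 by an older one.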

Additional observations from a re-analysis of the deposited data

Results flagged for a closer look

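In some results 1 library of a group of 4 lay far from the other 3, by a gap above Dixon's 95% critical value for the group's range. In all, 45 of 306 groups were flagged, a total that includes groups with no read in any library, where no gap can arise. Many of these genes were named after their values were seen, so no chance rate is set beside this count. Levels are in CPM, for transposable elements relative to gene reads. CMP/GMP WT 1 was above its group for Sox18 at 0.12, Lmo2 at 158 and L1Md_F at 8.89. CMP/GMP WT 1 was below its group for Spcs3 at 280.4. CMP/GMP WT 3 was above its group for Mpo at 20863, Elane at 5408, Ctsg at 2997, Csf1r at 225, Irf8 at 886, Sult1a1 at 2.59, Pkib at 45.2, Cldn15 at 35.2, Chdh at 28.3, Mcpt8 at 99.7, Clec12a at 412 and MT-int at 7.04. CMP/GMP WT 3 was below its group for Ldha at 1942 and Nfkbia at 375. CMP/GMP WT 4 was above its group for Klf12 at 0.0487 and Pes1 at 222. LT-HSC WT 1 was above its group for Mpo at 1378, Elane at 599.7, Ctsg at 397, Cebpa at 54.8, Csf1r at 29.2, Irf8 at 104, Nkg7 at 161, Klf4 at 125, Etv3 at 127, Pf4 at 2191, Mcpt8 at 89.5, Klf2 at 383, Cd48 at 47.9, Plac8 at 1056, Clec12a at 55.8 and RLTR6_Mm at 90.4. LT-HSC WT 1 was below its group for Slamf1 at 33.8, Oaz1 at 532, Cd79b at 5.23 and Lck at 0.299. LT-HSC WT 2 was above its group for Sult1a1 at 475, Dlk1 at 86.8, Mcm6 at 413 and Cdc6 at 60.8. LT-HSC WT 4 was above its group for Mecom at 222. The myeloid genes among those of LT-HSC WT 1 also stood out in CMP/GMP WT 3 for Mpo, Elane, Ctsg, Csf1r, Irf8, Mcpt8 and Clec12a. The reason was not tested.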

How the results depend on the processing

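Depth was at least 20.1 M gene reads a library, which does not give the number of RNA molecules sampled before amplification. The parts of sampling and of the spread between libraries in these results were not tested. The 1061 calls became 318 with CMP/GMP WT 2 and 4 summed, 2783 with DESeq2, 3024 with limma-voom and quality weights, and 290 to 2087 with 1 library left out. The 960 that changed over 2-fold became 317, 2277, 2514 and 290 to 1675 in that order. Other scalings, filters and terms kept both counts within 1.5 times. Of the 109 named genes called with 8 libraries, 56 stayed called with each library left out and with the pair summed, and none changed sign in any fit. Leaving out 1 library gave 0 to 345 called element subfamilies, 345 of them without LT-HSC WT 2 and 59 without LT-HSC WT 1. DESeq2 gave 238, scaling to element reads 1, and LT-HSC WT 1 left out with the pair summed, chosen after seeing the data, 6. The difference in element reads per 100 gene reads was 3.53 with the pair summed (exact permutation p = 0.0571), 1.8 with LT-HSC WT 1 also left out (exact permutation p = 0.1) and 1.75 to 4.5 with 1 library left out. For 3 against 4 libraries the smallest possible p is 0.0286. With LT-HSC WT 1 left out and the pair summed, 3 were set against 3, for which 0.1 is the smallest possible.

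Signs turned for values that had not passed the test. With 1 library left out, the log2 fold change of Pf4 ran from -0.71 to 1.97, of Mcpt8 from -13.48 (a fitted value with all other LT-HSC libraries at 0) to 0.72, of Vpreb1 from -1.32 to 0.12, of Rnaseh2c from -0.051 to 0.358 and of Hist1h4d from -0.24 to 0.0964. Medians ran from -0.63 to 1.3 for late neutrophil genes, -0.55 to 0.16 for erythroid genes, -1.17 to 0.12 for B cell markers, -0.72 to 0.0293 for macrophage markers, -0.132 to 0.022 for DNA sensing genes and -0.198 to 0.233 for ribosomal protein genes. With LT-HSC WT 1 left out and the pair summed, Pf4 was at -0.75, Rnaseh2c at -0.0989, Vpreb1 and the B cell list at 0.18, and the medians of late neutrophil, erythroid and ribosomal protein genes at -0.79, 0.38 and -0.25. Quality weights gave -0.36 for Pf4. The cause was not tested.

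With the replicate number as a block, 726 genes and 37 element subfamilies were called, and Lck was at -0.17. The labels give no shared source for a number, and the deviations of same-numbered libraries correlated at 0.21, 0.098, 0.076 and 0.064, so they were not treated as pairs, although each LT-HSC library correlated best with its own number.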
